A study of Mus musculus with 9 samples.

Results

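The genes for the type I interferon receptor, the interferon regulatory factors (IRF) and the signal transducer STAT2 were followed in spleens of female BALB/c mice. They were taken as all non-control probes of the array whose accession maps to Ifnar1, Ifnar2, Irf1, Irf3, Irf5, Irf7, Irf8, Irf9 or Stat2, which gave 12 probes for 9 genes of the 20659 genes with a symbol on the array. Expression was measured in total RNA on 9 Agilent 1-colour arrays, 1 per sample, with 3 samples in each of 3 groups. The first group had Graves' disease and a normal dietary selenium supply (normal Se GD), the second had the disease and a low supply (low Se GD), and the third had a low supply and no Graves' disease (low Se non-GD). In Graves' disease, autoantibodies to the thyrotropin receptor drive the thyroid. The labels name neither the means by which the disease was induced nor the age of the mice or the composition of the diets. Disease-free mice on a normal supply are not analysed here, so the effect of the supply could be tested in diseased mice only. Whether each sample is a mouse of its own is not stated in the labels, so the p-values rest on a spread between samples that may be technical only.

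Type I interferons bind a receptor of 2 chains, IFNAR1 and IFNAR2, whose kinases phosphorylate STAT2. STAT2 and IRF9 are subunits of the complex ISGF3, which binds interferon-stimulated response elements (ISRE) and switches on antiviral genes, Irf7 among them. IRF3, IRF5 and IRF7 act before the receptor, where they carry signals from nucleic acid sensors to the interferon genes. IRF1 is induced by interferon gamma at gamma-activated sites (GAS), and IRF8 is a lineage factor of B cells, monocytes and dendritic cells. In spleen, plasmacytoid dendritic cells are known for large amounts of type I interferon.

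Values are log2 signals minus the 75th percentile of the same array, and a difference is one of group means on that scale. Well above background were 72.6% to 82.6% of the spots on 8 arrays and 58.4% on normal Se GD replicate 3, which was scanned apart from the others. The arrays that share a scan time in their headers are called a scan here. Scan 1 contained low Se GD replicate 1 and all low Se non-GD arrays, scan 2 contained the first pair of normal Se GD replicates and the last pair of low Se GD replicates, and scan 3 only normal Se GD replicate 3. The group and the scan therefore go together in part, and no scan held both normal Se GD and low Se non-GD. A fit with scan as a block takes no difference from normal Se GD replicate 3, which is alone in its scan. In such a fit the difference between normal Se GD and low Se non-GD goes through low Se GD, of which scan 1 holds only replicate 1. Low Se GD replicate 2 and low Se non-GD replicate 3 were the middle array of their group for 69.0% and 78.3% of 18550 genes. Results without them are given where a call is lost. All 9 genes were well above background on all 9 arrays by the probe that stood for the gene, the one with the highest mean. Checked against the spleen label, 12 of 12 B cell markers were well above background on all arrays.

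The sequence before the gene start is shown for the members that differed between groups or that carry a match to one of the pathway's elements, so that the elements can be seen in place. The RefSeq promoter table (GRCm38.p6) lists 12 starts for the 9 genes, and 250 bases before each were searched on both strands for GAAA repeated after any 2 bases, of ISRE type, and for TTCNNNGAA, of GAS type, which do not overlap each other here. The ISRE-type letters were in 1 of the 12 windows, that of Stat2, and in 978 of all 32851 windows (2.98%). The GAS-type letters were in 3 of the 12, those of Ifnar2, Irf1 and Irf8, and in 2306 of all windows (7.02%). Sequences run 5′ to 3′ on the strand of the gene, and capitals mark the matched letters. The Irf7 window holds neither, and is printed without the 75 bases that lie inside the annotated gene. The Ifnar1 window holds neither as well, and the 67 bases of it outside the annotated gene are printed. The windows of Stat2 and Ifnar2 overlap the annotated genes Apof and Gm36587, so only the match with 10 bases on either side is printed for them. The Irf7 stretch is chr7:141266500-141266674 on the minus strand, and the others are on the plus strand, Ifnar1 at chr16:91484965-91485031, Stat2 at chr10:128270266-128270295, Ifnar2 at chr16:91372559-91372587, Irf1 (first start) at chr11:53769764-53770013 and Irf8 (first start) at chr8:120736108-120736357.
Irf7: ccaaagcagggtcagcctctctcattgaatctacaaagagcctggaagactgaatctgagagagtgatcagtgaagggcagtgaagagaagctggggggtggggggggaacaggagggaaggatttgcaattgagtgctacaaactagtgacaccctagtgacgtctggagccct
Ifnar1: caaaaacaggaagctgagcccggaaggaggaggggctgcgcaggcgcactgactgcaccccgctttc
Stat2: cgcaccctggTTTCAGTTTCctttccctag
Ifnar2: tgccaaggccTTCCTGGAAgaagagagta
Irf1: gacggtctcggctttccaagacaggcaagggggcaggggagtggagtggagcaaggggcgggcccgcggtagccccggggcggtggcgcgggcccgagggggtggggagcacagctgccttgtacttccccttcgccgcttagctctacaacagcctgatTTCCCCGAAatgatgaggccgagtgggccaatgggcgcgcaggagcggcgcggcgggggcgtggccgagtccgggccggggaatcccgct
Irf8: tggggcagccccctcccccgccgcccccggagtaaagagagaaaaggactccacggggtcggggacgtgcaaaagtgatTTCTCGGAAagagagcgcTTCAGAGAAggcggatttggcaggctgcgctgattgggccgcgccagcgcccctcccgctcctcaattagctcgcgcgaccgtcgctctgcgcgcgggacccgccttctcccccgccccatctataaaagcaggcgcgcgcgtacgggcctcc
The match began 222 bases before the start for Stat2, where the capitals are the reverse complement of the ISRE letters, 214 for Ifnar2 and 90 for Irf1. Irf8 held 2 matches, which began 171 and 153 bases before its first start. A match is a description of the letters only.

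Between low Se GD and low Se non-GD, a contrast of disease at a low supply, 3 of the 9 genes were called (limma, adjusted p under 0.05). Ifnar2 and Irf7 were higher in low Se GD, and Ifnar1 was lower by the probe that stands for it and by no other of its probes. Of all 26337 genes tested, 24.9% were called in that comparison (12.8% higher and 12.1% lower), so 3 of 9 is near what the whole array showed, and the groups did not overlap for 53% of all genes. Leaving out 1 array at a time moved that share from 24.9% to between 13.1% (without low Se GD replicate 2) and 41% (without normal Se GD replicate 3), with 3 or 4 members called. By probe, 3 of the 12 were called, against 25.1% of all probes. Without the 2 middle arrays named above, 0 of the 9 were called, against 1.02% of all genes. The differences were then -2.99 for Ifnar1, 0.58 for Ifnar2 and 2.41 for Irf7 (adjusted p = 0.0654, 0.0989 and 0.101). The median difference of the 9 genes was 0.11, against 0.08 over all genes. In normal Se GD against low Se GD, which asks about the supply in diseased mice, 0 of the 9 were called by limma, where 1.27% of all genes were (0.976% higher and 0.292% lower). That share was not stable, as the 334 genes called became 0 or 1 when any array but normal Se GD replicate 3 was left out and 1076 (4.09%) without that array. It was 6.5% with scan as a block and 10.6% within scan 2. At an unadjusted p under 0.05 there were 5119 genes, Irf5 and Irf8 among them. The groups did not overlap for 29.4% of all genes, and 0 of the 12 probes were called, against 2.17% of all probes. The split of all calls was 257 higher and 77 lower, and 330 higher and 165 lower after normexp and quantile normalization. In normal Se GD against low Se non-GD, Ifnar2, Irf7 and Irf8 were higher and Ifnar1 was lower, 4 of 9 against 32.3% of all genes (18.9% higher and 13.4% lower) and 4 of 12 probes against 33.5%. There the groups did not overlap for 49.1% of all genes. The last comparison changes disease and supply together, and shares its samples with the other 2, so the calls in it are no separate evidence.

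**Figure D1:**
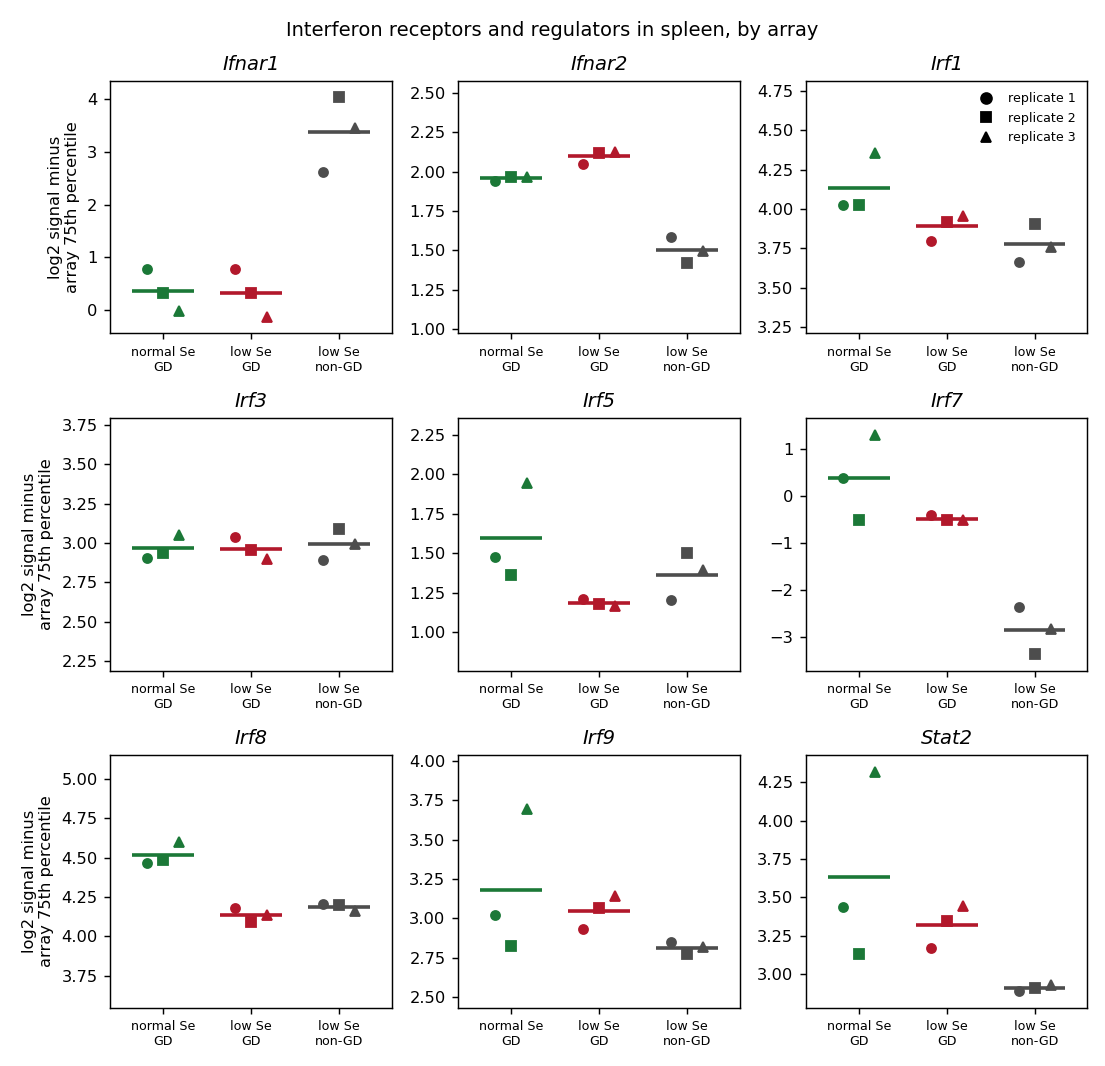
Level of each of the 9 genes on each array (log2 signal minus the 75th percentile of the array, y axes of different position and range). Points are arrays with the shape giving the replicate, bars are means of 3. Irf7, Ifnar2, Stat2 and the probe that stands for Ifnar1 separate the 6 GD arrays from the 3 low Se non-GD arrays. Normal Se GD replicate 3 is the highest array for Irf1, Irf5, Irf7, Irf8, Irf9 and Stat2.

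Irf7, the IRF that interferon itself induces and that amplifies interferon production, had the largest rise of the 9 genes. Its levels were 0.37, -0.52 and 1.30 in normal Se GD, -0.41, -0.52 and -0.52 in low Se GD, and -2.37, -3.37 and -2.83 in low Se non-GD. All 6 GD arrays lay above all 3 low Se non-GD arrays, and the low Se GD values were within a narrow band while those of normal Se GD were spread widely. The level in low Se GD exceeded that in low Se non-GD by 2.37 (SE 0.44, limma adjusted p = 0.00732), a 5.19-fold difference. For normal Se GD against low Se non-GD it was 3.24 (SE 0.44, adjusted p = 0.00180), or 9.47-fold. Between normal Se GD and low Se GD the difference was 0.87 with a 95% interval from -0.14 to 1.88 (adjusted p = 0.326), and the groups overlapped. Without normal Se GD replicate 3 that difference was 0.41 and the difference from low Se non-GD 2.78 (adjusted p = 0.00152). With scan as a block the first difference was 2.45 (adjusted p = 0.0191). Since only scan 1 holds both groups, that value rests on 1 low Se GD array, as does the difference within scan 1, which is the same number (adjusted p = 0.0771). In bulk spleen, more cells of a type with high Irf7 and more Irf7 RNA per cell cannot be told apart.

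Ifnar2, the receptor chain with the high affinity for ligand, was higher in both GD groups. It stood at 1.94, 1.97 and 1.97 in normal Se GD, 2.05, 2.12 and 2.12 in low Se GD, and 1.59, 1.42 and 1.50 in low Se non-GD. The groups did not overlap, and the spread within each was small. Low Se GD exceeded low Se non-GD by 0.59 (SE 0.08, adjusted p = 0.00297) and normal Se GD exceeded it by 0.46 (adjusted p = 0.00572). With scan as a block these were 0.55 (adjusted p = 0.0135) and 0.38 (adjusted p = 0.0781), and within scan 1 the first, which rests on the same 1 low Se GD array, had an adjusted p of 0.0890. Without the 2 middle arrays the call in normal Se GD was lost as well (0.45, adjusted p = 0.0837). Normal Se GD was below low Se GD by the values, with a difference of -0.14 and an interval from -0.34 to 0.06 (adjusted p = 0.416).

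Ifnar1, the signalling chain that carries the kinase TYK2, was measured by 3 probes that gave different answers. Probe A_55_P2454784, which stands for the gene, read 0.79, 0.33 and -0.02 in normal Se GD, 0.78, 0.33 and -0.13 in low Se GD, and 2.62, 4.02 and 3.45 in low Se non-GD. Low Se GD was 8.21-fold lower than low Se non-GD by this probe (log2 difference -3.04, SE 0.39, adjusted p = 0.00223), and normal Se GD was 7.99-fold lower (-2.999, adjusted p = 0.00161). The differences with scan as a block were -2.58 for low Se GD (adjusted p = 0.0226) and -2.12 for normal Se GD (adjusted p = 0.0889). Probe A_55_P2036337 was flat, at -0.63, -0.56 and -0.60 in normal Se GD, -0.65, -0.51 and -0.56 in low Se GD, and -0.59, -0.47 and -0.52 in low Se non-GD. By this probe the difference of low Se GD from low Se non-GD was -0.05, with an interval from -0.25 to 0.15 (adjusted p = 0.720 over all probes), which does not reach the size given by the first probe. The dim probe A_55_P2438722 ran the other way, at -4.14, -3.92 and -4.74 in normal Se GD, -4.41, -4.55 and -4.57 in low Se GD, and -4.89, -4.86 and -4.80 in low Se non-GD. Its differences from low Se non-GD, 0.58 for normal Se GD (adjusted p = 0.0530) and 0.34 for low Se GD (adjusted p = 0.251), were not called.

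The fall at probe A_55_P2454784 went with a control spot of the array. Of the 10 E1A control probes, a107 was the brightest, at 2.37, 1.43 and 0.87 in normal Se GD, 2.51, 1.71 and 1.01 in low Se GD, and 4.72, 5.85 and 5.35 in low Se non-GD. All low Se non-GD arrays lay above all GD arrays for 4 of the 10, a107 among them, and the groups overlapped for the other 6. The Ifnar1 probe ranked the 3 arrays of each of the 3 groups in the order of that spot, as did 4.89% of all genes tested and 42.6% of the 1299 genes called at least 4-fold lower in low Se GD than in low Se non-GD. No other member probe did (1 of 12 in all). The part of whatever moves the control spot in the Ifnar1 result was not tested, and a direction for the gene is not given by these probes together. As a mean of its 3 probes Ifnar1 differed from low Se non-GD by -0.83 in normal Se GD (adjusted p = 0.0107) and by -0.92 in low Se GD (adjusted p = 0.00986). That mean is carried by A_55_P2454784. The 3 probes differed by -2.999, -0.08 and 0.58 in normal Se GD and by -3.04, -0.05 and 0.34 in low Se GD, with A_55_P2454784 first.

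**Figure D2:**
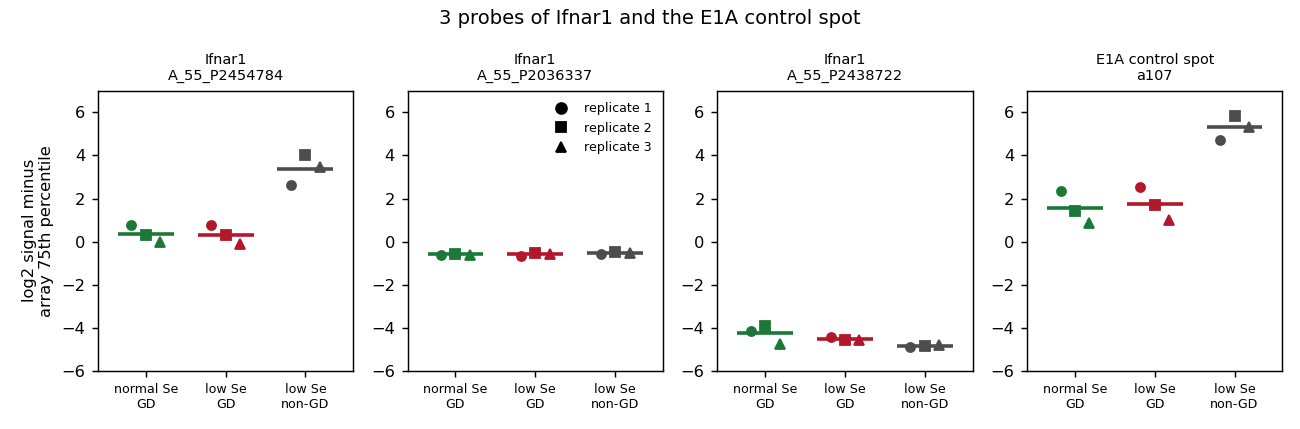
The 3 probes of Ifnar1 and the E1A control spot a107 on each array (log2 signal minus the 75th percentile of the array), with bars at the mean of 3. The first probe and the control spot are both highest in low Se non-GD and put the arrays of each group in the same order, whereas A_55_P2036337 stays between -0.65 and -0.47.

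STAT2 and IRF9 act together in ISGF3. Stat2 levels were 3.44, 3.13 and 4.32 in normal Se GD, 3.17, 3.34 and 3.45 in low Se GD, and 2.89, 2.91 and 2.93 in low Se non-GD. Each GD array lay above every low Se non-GD array, and replicate 3 of normal Se GD stood well apart. The difference from low Se non-GD was 0.72 for normal Se GD (SE 0.27, adjusted p = 0.0785) and 0.41 for low Se GD (SE 0.27, adjusted p = 0.311). Without normal Se GD replicate 3, whose spread enters the shared error, both were called, at 0.38 for normal Se GD (adjusted p = 0.0416) and 0.41 for low Se GD (adjusted p = 0.0223). In that fit 43.8% and 41% of all genes were called in these comparisons. The difference for normal Se GD was also called, at 0.97 (adjusted p = 0.0295), when replicate 2 of normal Se GD was left out. It was called as well after normexp and quantile normalization (0.81, adjusted p = 0.0309), in 3 of 21 alternatives in all. The difference for low Se GD was also called when only the 2 groups compared were fitted (adjusted p = 0.0208), in 2 of 22 alternatives in all. Between normal Se GD and low Se GD the difference was 0.31 with replicate 3 of normal Se GD (adjusted p = 0.579) and -0.04 without it. With scan as a block the 0.72 became 0.15 (adjusted p = 0.556). That value goes through the only low Se GD array of scan 1 and takes nothing from normal Se GD replicate 3. Irf9 had 3.02, 2.82 and 3.69 in normal Se GD, 2.93, 3.07 and 3.14 in low Se GD, and 2.85, 2.77 and 2.82 in low Se non-GD. Low Se GD lay above low Se non-GD on every array, by 0.24 (adjusted p = 0.456), and normal Se GD differed from low Se non-GD by 0.37 with replicate 3 (adjusted p = 0.219) and by 0.11 without it. The scan block turned the 0.37 to -0.06 (adjusted p = 0.776) and took the 0.24 to 0.12 (adjusted p = 0.431).

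Irf3 and Irf5 are regulators that wait in the cytoplasm for signals from sensors. Irf3 was the flattest of the 9 genes, at 2.91, 2.94 and 3.05 in normal Se GD, 3.04, 2.96 and 2.90 in low Se GD, and 2.89, 3.09 and 2.996 in low Se non-GD. Its intervals ran from -0.25 to 0.19 for low Se GD minus low Se non-GD and from -0.22 to 0.22 for normal Se GD minus low Se GD. Irf5, which acts after toll-like receptors, stood at 1.48, 1.36 and 1.95 in normal Se GD, 1.21, 1.18 and 1.17 in low Se GD, and 1.20, 1.50 and 1.39 in low Se non-GD. The normal Se GD arrays lay above all low Se GD arrays, by 0.41 (SE 0.16, adjusted p = 0.219), and were not called.

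Irf8 was the member that came nearest to a difference between the selenium supplies. It had 4.47, 4.49 and 4.60 in normal Se GD, 4.18, 4.09 and 4.14 in low Se GD, and 4.20, 4.20 and 4.16 in low Se non-GD. All normal Se GD arrays were above all others, while low Se GD and low Se non-GD overlapped. Normal Se GD exceeded low Se GD by 0.38 (SE 0.08, adjusted p = 0.0698), which was not called. With scan as a block this was 0.36 and called (adjusted p = 0.0403), within scan 2 its adjusted p was 0.0507, and without normal Se GD replicate 3 it was 0.34 (adjusted p = 0.0463). The block value and the scan 2 value are the same difference. All of these fits set normal Se GD replicate 3 aside, so they are no separate evidence. Irf8 was also called in fits that keep all 9 arrays. These were normexp and quantile normalization (0.54, adjusted p = 0.0381), genes above background on all 9 arrays (adjusted p = 0.0302) and a trended and robust prior (adjusted p = 0.0462). In all, this difference was called in 5 of 22 alternatives. Normal Se GD exceeded low Se non-GD by 0.33 (SE 0.08, adjusted p = 0.0194), a call that was lost with scan as a block (0.35, adjusted p = 0.0573). The same call was lost at 0.32 when low Se non-GD replicate 3 was omitted (adjusted p = 0.0872) or both middle arrays were (adjusted p = 0.176). Markers of the lineages that use IRF8 were looked at in the contrast of the supplies, where 0.976% of all genes were higher and 0.292% lower. Of 12 B cell markers 3 were higher in normal Se GD than in low Se GD and 0 lower, and their summed linear signal, in units of the 75th percentile of the array, was 128 to 138 in normal Se GD, 106.9 to 111 in low Se GD and 137 to 157 in low Se non-GD. A link between the B cell sum and Irf8 was not tested. Of 9 markers of conventional dendritic cells 1 was higher, with sums of 14.8 to 17.7 in normal Se GD, 13.3 to 13.9 in low Se GD and 10.8 to 14.9 in low Se non-GD. All B cell and conventional dendritic cell markers were well above background on every array. Of 14 markers of monocytes and macrophages 1 was higher and 0 lower, and of 9 of plasmacytoid dendritic cells 0 were called by limma (1 at an unadjusted p under 0.05). The part of these cells in the Irf8 result was not tested.

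Irf1, an early target of interferon gamma, was measured by a bright probe, A_55_P2000062, and a dim one, A_55_P2000067. The bright probe read 4.03, 4.02 and 4.36 in normal Se GD, 3.80, 3.92 and 3.95 in low Se GD, and 3.67, 3.90 and 3.76 in low Se non-GD. Normal Se GD lay above both other groups on every array, by 0.25 from low Se GD (adjusted p = 0.327) and by 0.36 from low Se non-GD (adjusted p = 0.0605), and neither was called. The second passed in 5 of the 21 alternatives tried. The dim probe lay between -5.77 and -4.22 and was well above background on 2, 2 and 3 of the 3 arrays of normal Se GD, low Se GD and low Se non-GD. It was called in no comparison (lowest adjusted p = 0.119).

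**Figure D3:**
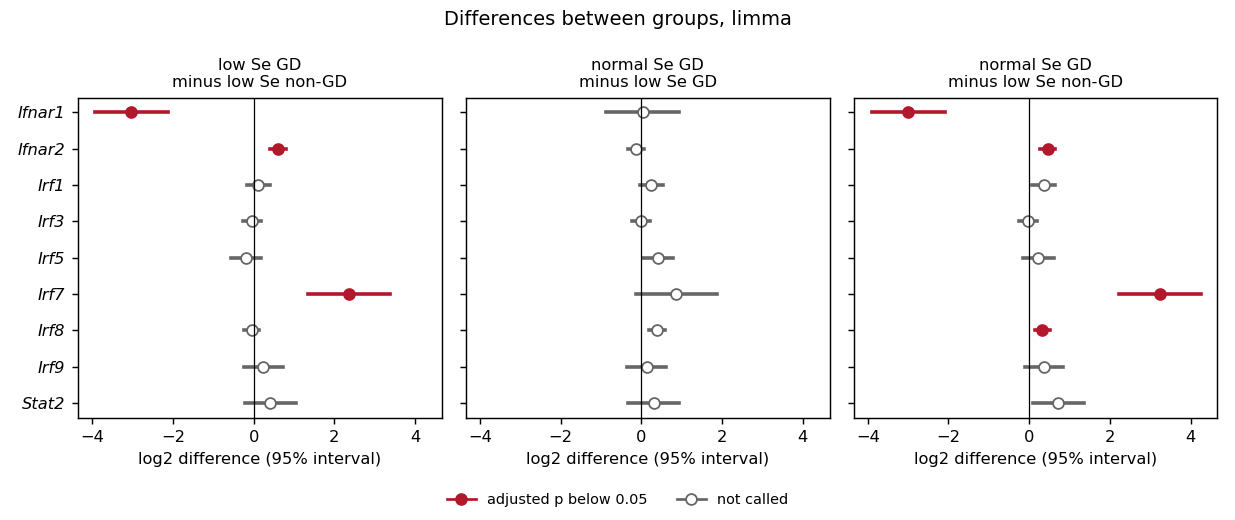
Log2 difference of each member in each comparison, with its 95% interval from limma (9 arrays, 3 per group). Filled red points passed an adjusted p of 0.05, and open grey points did not. No member passed between normal Se GD and low Se GD.

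Other genes of the pathway were taken as lists by role, chosen with earlier results of these data known. Their counts stand beside all genes tested, of which 18.9% were higher and 13.4% lower in normal Se GD than in low Se non-GD, and 12.8% higher and 12.1% lower in low Se GD. Of 20 tested targets of ISGF3, 17 were higher and 0 lower in normal Se GD than in low Se non-GD, with a median difference of 1.46. Set against low Se non-GD as well, 14 were higher and 0 lower in low Se GD (median 1.29), and between normal Se GD and low Se GD 0 were called (median 0.20). Ifit1, which binds foreign RNA, was 3.03 higher in low Se GD than in low Se non-GD (adjusted p = 0.000825). Rtp4, a receptor chaperone, was 2.46 higher in normal Se GD and 2.02 higher in low Se GD than in low Se non-GD. Of 18 targets of interferon gamma, 11 were higher in normal Se GD than in low Se non-GD (median 0.74), 4 were higher in low Se GD (median 0.27), and 0 were lower in either. Cxcl10, a chemokine for T cells, was higher by 2.09 in normal Se GD. Irgm1, a GTPase of defence against microbes, was higher by 1.105 in normal Se GD and by 0.84 in low Se GD. The difference between these counts was not tested, and no gene of either list was called between the 2 GD groups.

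Of 11 other IRF and STAT genes, 4 were higher and 1 lower in normal Se GD than in low Se non-GD, and 2 were higher and 1 lower in low Se GD. Irf2, a factor that competes with IRF1 for its sites, was higher by 0.58 in normal Se GD and 0.74 in low Se GD. Irf2bp2, a corepressor that binds IRF2, was higher by 1.47 in normal Se GD and 1.24 in low Se GD. The other two were called in normal Se GD but not in low Se GD, Irf2bp1 by 0.52 (adjusted p = 0.0131) and Stat3, which acts after several cytokines, by 0.59 (adjusted p = 0.0371). Stat4, which acts after interleukin 12, differed by -1.63 in normal Se GD (adjusted p = 0.00501) and -1.49 in low Se GD (adjusted p = 0.00943). It too ranked the arrays of each group like the E1A control spot. Of 8 other receptor chains and kinases, 2 were higher in normal Se GD than in low Se non-GD, Ifngr1, a chain of the interferon gamma receptor, by 0.38 and Tyk2 by 0.37, and 0 were called in low Se GD. These 2 of 8, like 4 of 11 above, are not far from the 18.9% of all genes, and were not tested against it.

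Of the interferon genes themselves, 12 of the 16 on the array passed the filter for dim signals. In each GD group 0 of them were higher and 2 were lower than in low Se non-GD. Ifna11 differed by -2.98 in normal Se GD and -2.51 in low Se GD, and Ifna1 by -2.21 in normal Se GD and -2.04 in low Se GD. Both ranked the arrays of each group like the control spot, and as near-identical copies the interferon alpha genes may not be separated by their probes. Ifng, for interferon gamma, was called in no comparison (1.12 between normal Se GD and low Se GD, adjusted p = 0.110).

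Of 22 sensors and adaptors, 11 were higher and 0 lower in normal Se GD than in low Se non-GD, and 5 were higher and 2 lower in low Se GD. Tlr7, the endosomal sensor of single-stranded RNA that signals to IRF5 and IRF7, was higher by 1.33 in normal Se GD (adjusted p = 0.000348) and by 1.22 in low Se GD (adjusted p = 0.000574). The cytosolic RNA sensor Ifih1 was higher by 0.998 in normal Se GD and 1.04 in low Se GD. Tbk1, the kinase of IRF3, differed by -0.73 in low Se GD (adjusted p = 0.00688). Between normal Se GD and low Se GD 1 gene of the list was called, Traf6, an adaptor of toll-like receptors, higher by 0.55 (adjusted p = 0.0448). Of 10 inhibitors, 4 were higher and 0 lower in normal Se GD than in low Se non-GD, and 4 were higher and 2 lower in low Se GD. Usp18, which blocks IFNAR2 and removes ISG15, was higher by 1.43 in normal Se GD and 1.31 in low Se GD. Socs1, an inhibitor of the receptor kinases, was higher by 1.32 in normal Se GD and 0.79 in low Se GD.

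**Figure D4:**
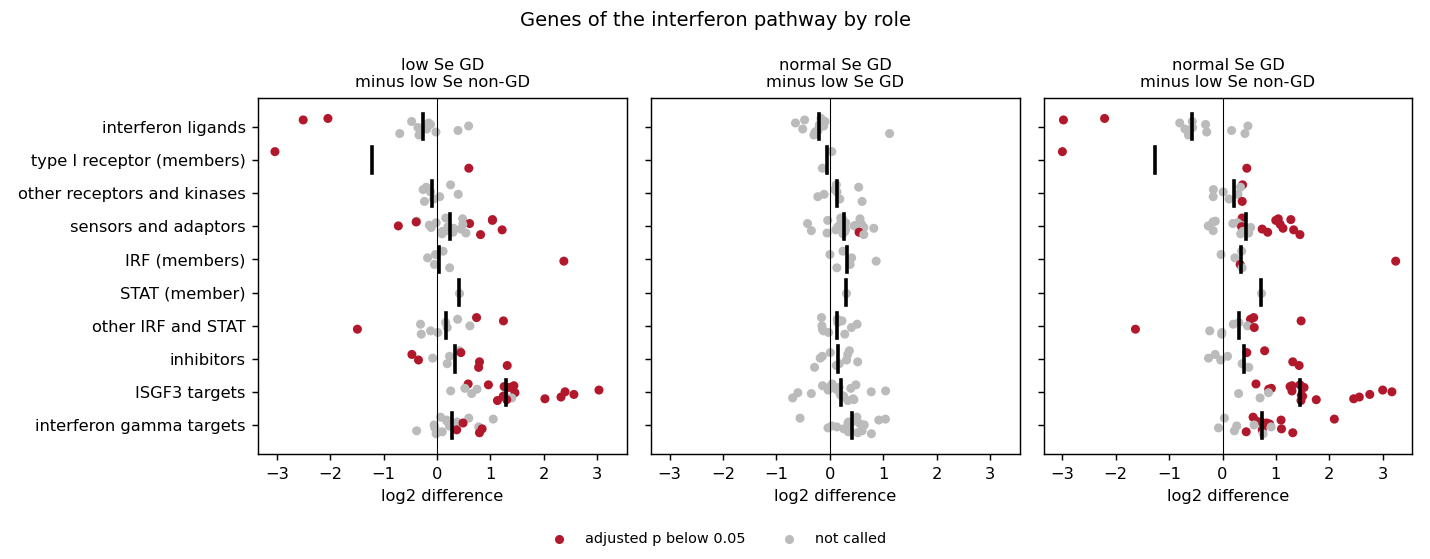
Log2 difference of the tested genes of the pathway lists by role, with 1 point per gene and a black bar at the median of the list, in the 3 comparisons. Red points passed an adjusted p of 0.05. The targets of ISGF3 lie to the right of 0 in both comparisons with low Se non-GD, and 1 gene, Traf6, is red between normal Se GD and low Se GD.

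The genes with the profile most like Irf7 were sought among 13366 genes with a symbol that were well above background on all arrays. The measure was the root mean square difference over the 9 arrays after each gene's own mean was taken off. The 5 nearest to Irf7, whose own profile had a root mean square of 1.46, were Ifit3 (0.17), Ifit3b (0.25), Ifi44l (0.27), Oasl2 (0.32) and Oas2 (0.34). Ifit3, an antiviral RNA-binding protein, had 2.68, 1.99 and 3.38 in normal Se GD, 2.19, 1.93 and 1.61 in low Se GD, and -0.14, -0.85 and -0.47 in low Se non-GD. It shared with Irf7 the order of the normal Se GD arrays, replicate 3 above 1 above 2, and of the low Se non-GD arrays, replicate 1 above 3 above 2. Ifit3 was picked for its small difference from Irf7 on these same arrays, so the shared order is no separate evidence. Nearest to Stat2 (root mean square 0.42) were Znfx1 (0.11), Ehd4, Nampt, Zfp84 and Samd9l (0.12), and nearest to Irf9 (0.27) were Htt (0.055), Rnasek, Gpr107, Trip10 and Mprip (0.077). In those 2 sets, and in the Irf7 set as well, normal Se GD replicate 3, the dim array, was the highest for every gene.

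**Figure D5:**
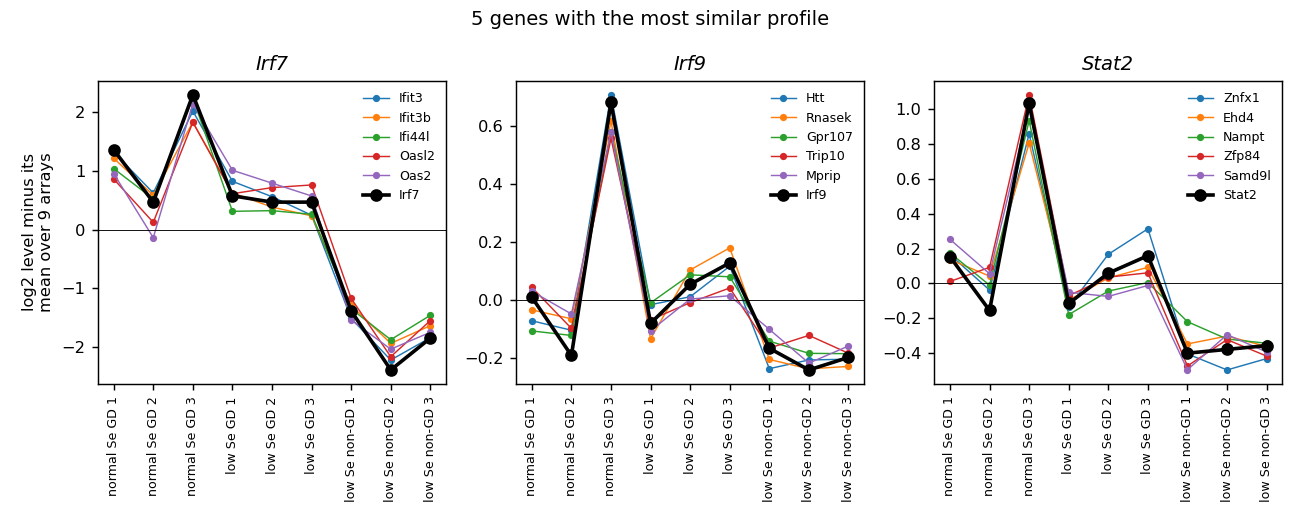
Profiles over the 9 arrays (log2 level minus the gene's mean over the arrays) of Irf7, Irf9 and Stat2 in black and of the 5 genes most like each in colour. Lines only join the points of 1 gene. Irf7, Stat2 and the neighbours of each are higher on all GD arrays than on all low Se non-GD arrays. In the Irf7, Irf9 and Stat2 sets alike, normal Se GD replicate 3 stands above all other arrays.

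Markers of cell types that a spleen sample can hold were also counted between the groups whose Irf7 and Ifnar2 differed. Of all genes tested, 18.9% were higher and 13.4% lower in normal Se GD than in low Se non-GD, and 12.8% and 12.1% in low Se GD. The counts were not tested against these shares. Of 14 markers of monocytes and macrophages, 11 were higher in normal Se GD and 8 were higher in low Se GD than in low Se non-GD, and 0 were lower, with summed signals of 87.2 to 102 in normal Se GD, 81.0 to 86.9 in low Se GD and 48.1 to 55.3 in low Se non-GD. Of 8 natural killer markers, 7 were higher in normal Se GD and 5 in low Se GD than in low Se non-GD, with sums of 12.5 to 16.5 in normal Se GD, 12.2 to 13.4 in low Se GD and 5.65 to 7.82 in low Se non-GD. Of 9 plasmacytoid dendritic cell markers, 1 was higher and 1 lower in each GD group than in low Se non-GD, with sums of 106.96 to 220 in normal Se GD, 184 to 266 in low Se GD and 305 to 322 in low Se non-GD. These markers include Bst2, which is also in the list of ISGF3 targets above. B cell markers were lower in 5 of 12 and higher in 0 when low Se GD was set against low Se non-GD, and 2 were higher and 2 lower in normal Se GD. Of 9 conventional dendritic cell markers, 5 were higher in normal Se GD and 4 in low Se GD than in low Se non-GD, and 0 were lower. Markers of adipocytes, a cell of neighbouring tissue, were higher in 5 and lower in 1 of 8 in low Se GD than in low Se non-GD, with sums of 1.51 to 1.64 in normal Se GD, 7.60 to 69.6 in low Se GD and 2.88 to 6.32 in low Se non-GD. In the same contrast 1 T cell marker of 11 was higher and 1 lower, 2 neutrophil markers of 8 were higher and 1 lower, and 0 of 9 erythroid markers were called by limma, with 1 at an unadjusted p under 0.05 and a median difference of 0.73. The part of these cells in the member results was not tested.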

How the data were processed

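Total RNA of spleen had been labelled by a 1-colour protocol for Agilent mouse arrays, per the labels' protocols. Each deposited scanner file gives linear intensities of spots, background-subtracted and detrended by Agilent Feature Extraction 11.0.1.1 with no scaling between arrays, per the file headers, and marks (0 or 1) for well above background, saturation and outliers. The authors' deposited matrix of log2 values served as an alternative. Its making is unstated, and the replicate numbers of its low Se non-GD columns are uncertain.

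Of 44397 spots, 1377 control spots and outlier spots were left out of the tests, no spot was saturated (0), and processed signals were taken as log2 minus the array's 75th percentile. Accessions matched to GRCm38.p6 named 27234 of 39429 probes. A gene was represented by its probe with the highest mean, and had to be well above background on at least 3 of 9 arrays (6067 left out, and 47 with no value on an array). limma 3.58.1 in R 4.3.3 was fitted to all 9 arrays (2-sided, 6 residual degrees of freedom), with Benjamini-Hochberg adjustment across the 26337 genes, or 31882 probes, tested and a threshold of 0.05. The members and lists were chosen with earlier results of these data known, and 1 gene of the pathway is not reported here. All members were named, listed genes past the threshold could be named and some are, as were the 5 genes most alike to Irf7, Irf9 and Stat2. Mean signals were not used, so normexp (offset 50) ran on median signals. The fit was tested on simulated data. Replicate numbers were not used to pair the samples, and whether they do is not known. The number of arrays limits the precision.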

Additional observations from a re-analysis of the deposited data

How the results depend on the processing

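Of 585 alternatives to the member differences, 520 kept direction and call, 15 gained and 15 lost a call, 35 changed the sign of a difference called in neither fit, and none reversed a called one. In normal Se GD against low Se GD, 1 member was called in place of 0 after normexp and quantile normalization (1 probe), with genes above background on all 9 arrays (1 probe), with scan as a block (1 member, 2 probes), with a trended and robust prior, and without normal Se GD replicate 3. The member was Irf8 in each of these fits. The shares of all genes called in them were 1.88%, 6.94%, 6.5%, 1.8% and 4.09%, in that order. Leaving out 1 array at a time gave 0 to 1 members and 0 to 2 probes there, and 3 to 5 probes in low Se GD minus low Se non-GD, with 5 without normal Se GD replicate 3. In normal Se GD against low Se non-GD, the 4 members called became 1 with scan as a block (2 probes) and 2 without the 2 middle arrays, an alternative added after the data were seen. The 4 became 6 after normexp and quantile normalization (6 probes), and 5 by quantile normalization, in the authors' table, above background on all 9 arrays and with the trended and robust prior. The shares of all genes there were 31.8%, 32%, 32%, 39.6% and 32.9%, in that order. For low Se GD minus low Se non-GD the 3 became 0 without the 2 middle arrays, where fewer samples entered and 1.02% of all genes were called. Within scan 1, which holds 1 low Se GD array, the differences were -2.58 for Ifnar1, 0.55 for Ifnar2 and 2.45 for Irf7. Irf7 in normal Se GD against low Se non-GD was called in 21 of 21 alternatives (2.52 to 3.70), Ifnar2 in 19 of 21 and Irf8 in 15 of 21. Scaled to the array median, the median of all genes in low Se GD minus low Se non-GD was 0.18 in place of 0.08, and 0 genes were called between normal Se GD and low Se GD by that scaling or by quantile normalization. Deviations of samples of 1 replicate number from their group means had correlations of -0.36 to 0.24 (2 of 9 over 0.1), which with 3 arrays per group cannot exclude a pairing. The replicate block gave 3, 0 and 3 members, against 19.5%, 0% and 27.3% of all genes, with Irf8 in normal Se GD against low Se non-GD at 0.33 (adjusted p = 0.0571). The cause of each change was not tested. The dim probes of Ifnar1 and Irf1 lay near background, which limits what their differences show.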
